A study of Mus musculus with 8 samples.

Results

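Neutrophil granule and maturity markers were read in mouse brown adipose tissue (BAT), the thermogenic fat, with and without cancer-associated cachexia. The markers are the 9 genes Ngp, Camp, Ltf, Chil3, Retnlg, Cxcr2, Csf3r, Mcemp1 and Clec4d, taken by gene name from a count table of 56953 genes. Ngp, Camp and Ltf stand for early granule genes and Cxcr2, Csf3r and Retnlg for genes of mature neutrophils, and all 9 names were found. The study compared BAT of 4 CTR mice with BAT of 4 CAC mice, with 1 library of bulk RNA for each mouse. All were wild-type (WT) C57BL/6J mice, male or female and aged 8 to 10 weeks at the start, and which animals were male is not given. CTR mice received PBS alone, and CAC mice received 3000000 LLC cells, a mouse Lewis lung carcinoma line, under the skin of the flank. They were monitored for 21 days, and only tumour-bearing mice were kept in the CAC group. Whole tissue was extracted, so blood held in its vessels is part of each library, and no neutrophil was sorted.

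Neutrophils form in the bone marrow, and their granules are filled in waves. The proteases of azurophil granules are transcribed at the promyelocyte stage, the contents of specific granules at the myelocyte and metamyelocyte stage, and gelatinase and surface receptor genes in the last steps before release to the blood. Specific granule transcripts are therefore plentiful in marrow and low in circulating cells, while the chemokine receptor gene Cxcr2 marks cells that are ready to leave or have left. The G-CSF receptor gene Csf3r is counted here with the mature genes, although it is not confined to such cells.

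Every marker had a higher pooled CPM in CAC than in CTR BAT, but from very few reads: the 9 genes together had 25 reads in CTR and 222 in CAC. Retnlg carried 106 of the CAC reads, and it was the only marker with enough reads for the test across genes, in which it rose, although it reached that test through its CAC libraries alone. Early and mature genes differed between the groups by ratios whose counting intervals overlap. The early share of the reads was not detectably different at this depth.

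The 3 early genes are neighbours on chromosome 9, and the mature genes lie on 3 other chromosomes. In GRCm38 (GENCODE M21), Camp occupies chr9:109847379-109849617 on the minus strand, Ngp chr9:110419747-110423012 on the plus strand and Ltf chr9:111019271-111042767 on the plus strand. They fall within 1195389 bases, a span that holds 54 annotated genes. Retnlg lies at chr16:48872621-48874496, Cxcr2 at chr1:74153989-74161246 and Csf3r at chr4:126024550-126044440, all on the plus strand. Chil3 lies at chr3:106147554-106167564 on the minus strand, Mcemp1 at chr8:3665754-3669259 and Clec4d at chr6:123262111-123275265, both on the plus strand. All 9 are protein coding, and none overlaps another annotated gene, so reads of a neighbour on either strand do not fall in them by annotation.

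The 250 bases upstream of each RefSeq start (GRCm38.p6; all 9 genes matched by symbol) were searched on both strands for letters that 2 regulators of granulocyte genes are known to bind. C/EBP factors, among them the one needed for specific granules, were searched as TTNNGCAA, which 9.564% of 32851 promoter windows hold. PU.1, a myeloid lineage factor, was searched as GAGGAAG, which 10.61% hold. The C/EBP letters occurred in 3 markers, Ngp, Ltf and Retnlg, and the PU.1 letters in 2, Csf3r and Clec4d, while 4 markers held neither, and no match overlapped another. RefSeq and GENCODE place some starts differently, and by the GENCODE coordinates above the second Ngp window and the Csf3r window lie just inside the gene. The windows of 30 bases around each match are shown because they set early and mature genes side by side, written 5′ to 3′ on the plus strand, which is the strand of these genes, with the match in capitals.
Ngp, chr9:110419659-110419688: gtcctggtttaTTGCCCAAacctccttgcc
Ngp, chr9:110419778-110419807: tttatgtcaccggcagttcTTGGGCAAggc
Ltf, chr9:111019206-111019235: aggcaggcctaTTGGGCAAtagggtggggc
Retnlg, chr16:48872358-48872387: agctTTCTGCAAggcattccaggcacctcc
Csf3r, chr4:126024562-126024591: ctccttcctgaGAGGAAGgggctgtctatg
Clec4d, chr6:123261857-123261886: caccaacttCTTCCTCtgttctaaagcaaa
A match describes the letters and not binding, and with 9 genes nothing is read from these counts. For Retnlg, the marker on which the test across genes rests, the whole upstream window chr16:48872358-48872607 (plus strand, C/EBP letters in capitals) follows.
Retnlg upstream: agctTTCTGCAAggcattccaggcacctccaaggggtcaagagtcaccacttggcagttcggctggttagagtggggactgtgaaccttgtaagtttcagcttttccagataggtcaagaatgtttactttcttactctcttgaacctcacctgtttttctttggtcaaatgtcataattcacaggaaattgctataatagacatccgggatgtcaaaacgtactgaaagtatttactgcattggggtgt

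Depth decides how firmly these genes can be read. The libraries hold 1823167 to 4827956 counts, so that a gene without reads may still be present at up to 3 counts, or 0.661 to 1.62 CPM (counts per 1000000 counts of a library, whose size was corrected by the TMM method). Of 23730 genes with a count, 9876 passed edgeR's low-count filter, and 92 of those, 0.932%, had an adjusted p under 0.05, 73 of them (0.739%) higher in CAC. The filter asks for 3.52 CPM (on total counts) in 4 libraries. Retnlg reached this level in all 4 CAC libraries and in 0 CTR libraries, so it could be tested only because it was high in CAC, and its call is no support for the markers as a group. The other 8 markers, with 7 to 25 reads in all 8 libraries together, reached it in no library. For these 8, values are given as reads and CPM per library with an exact two-sided permutation test of the mean CPM. With 4 against 4 libraries the exact permutation test has 70 assignments and cannot go below p = 0.0286, and the 9 tests were read one gene at a time without adjustment. Ratios between the groups come from pooled reads divided by pooled library size, with exact 95% counting intervals, which cover counting error only and not the spread between mice. Counts are not corrected for gene length, so reads are compared between groups and not between genes. In bulk tissue, more cells of a type and more RNA per cell cannot be told apart.

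Among the early granule genes, Ngp, which encodes a cathelicidin-related granule protein, was higher in each CAC library than in each CTR library. It had 0, 0, 1 and 1 reads in CTR libraries 1 to 4 and 3, 4, 9 and 7 in CAC libraries 1 to 4. Its mean was 0.159 ± 0.200 CPM (SD, n = 4) in CTR and 2.21 ± 0.443 in CAC (exact permutation p = 0.0286), a pooled ratio of 15.5 (3.83 to 135).

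Ltf encodes lactoferrin, the iron-binding protein of specific granules. It had 1, 0, 0 and 0 reads in CTR and 2, 1, 7 and 1 in CAC, or 0.0900 ± 0.180 CPM (SD, n = 4) against 1.00 ± 0.765 (exact permutation p = 0.0571). The groups overlapped, because the single read of CTR library 1 counts for slightly more CPM than the single read of CAC library 4. The pooled ratio was 14.8 (2.15 to 637). The difference of the means was 0.913 CPM, and 0.564 without CAC replicate 3.

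Camp encodes the cathelicidin antimicrobial peptide. No CTR library had a read on it, and the CAC libraries had 2, 0, 5 and 0. The mean in CAC was 0.637 ± 0.752 CPM (SD, n = 4, exact permutation p = 0.429), so the spread between the CAC mice was larger than the difference, and without CAC replicate 3 the difference was 0.360 CPM. The lower end of the exact 95% interval of the pooled ratio was 1.94, and with no CTR read the ratio has no upper end. The CAC mean lies under the level of 3 counts in a single library.

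Among the mature genes, Retnlg, which encodes a resistin-like protein secreted by granulocytes, had the most reads. It had 1, 2, 5 and 5 reads in CTR and 36, 9, 46 and 15 in CAC. In CPM these were 0.360, 0.533, 2.07 and 1.10 in CTR and 19.5, 4.79, 13.5 and 5.23 in CAC. The groups did not overlap, as for 3.64% of the tested genes in this direction, and CAC libraries 1 and 3 lay well above CAC libraries 2 and 4. Its means were 1.02 ± 0.773 and 10.7 ± 7.06 CPM (exact permutation p = 0.0286). In edgeR's quasi-likelihood test the log2 fold change was 3.40 (standard error 0.58) and the edgeR adjusted p was 0.0155 over the 9876 genes. The call rests on CTR libraries 1, 2 and 4: the edgeR adjusted p was 0.0672 without CTR replicate 1, 0.0738 without CTR replicate 2 and 0.0523 without CTR replicate 4, while the log2 fold change stayed between 3.05 and 3.81 over the 8 fits that each left out 1 library.

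Cxcr2, the receptor for neutrophil-attracting CXC chemokines, had no read in any CTR library. It had 2, 5, 7.5 and 4 reads in CAC, where CAC library 3 holds the only fractional count among the markers. The CAC mean was 1.87 ± 0.752 CPM (SD, n = 4, exact permutation p = 0.0286). Every CAC library thus had reads where CTR had none, and the lower end of the exact 95% interval of the pooled ratio was 6.28.

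Csf3r encodes the receptor of G-CSF, the growth factor of the granulocyte line. It had 0, 2, 0 and 1 reads in CTR and 6, 1, 4 and 2 in CAC, or 0.188 ± 0.252 against 1.41 ± 1.25 CPM (SD, n = 4, exact permutation p = 0.0571). The groups touched at 1 point, CTR library 2 with 0.533 CPM and CAC library 2 with 0.532 CPM. On the authors' own normalized values these 2 libraries are in the opposite order and the exact permutation p is 0.0286, so the test for this gene turns on which scaling is used. The pooled ratio was 5.83 (1.603 to 31.9). The difference of the means, 1.22 CPM, was 0.612 without CAC replicate 1.

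The other 3 markers were read in the same way. Mcemp1, a mast cell and myeloid membrane protein gene, had 1, 0, 0 and 0 reads in CTR and 6, 0, 10 and 7 in CAC. Its means were 0.0900 ± 0.180 and 2.15 ± 1.47 CPM (SD, n = 4, exact permutation p = 0.143), with a pooled ratio of 31.0 (5.03 to 1276). The 3 CAC libraries with reads all lay above CTR, and CAC library 2 had none.

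Clec4d, a C-type lectin receptor of myeloid cells, had 0, 0, 0 and 1 reads in CTR and 3, 1, 2 and 3 in CAC. Its means were 0.0551 ± 0.11 and 0.946 ± 0.506 CPM (SD, n = 4, exact permutation p = 0.0286), with a pooled ratio of 12.1 (1.68 to 531). The groups did not overlap, but CTR library 4 and CAC library 2 had 1 read each and are parted only by their depth.

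Chil3 encodes a chitinase-like protein that neutrophil precursors and some macrophages make. It had 3, 0, 0 and 1 reads in CTR and 2, 2, 5 and 2 in CAC, or 0.325 ± 0.514 against 1.08 ± 0.314 CPM (SD, n = 4, exact permutation p = 0.0857). CTR library 1, at 1.08 CPM, lay within the range of the CAC libraries, 0.697 to 1.47 CPM. Its pooled ratio was 3.70 (1.10 to 15.9).

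**Figure D1:**
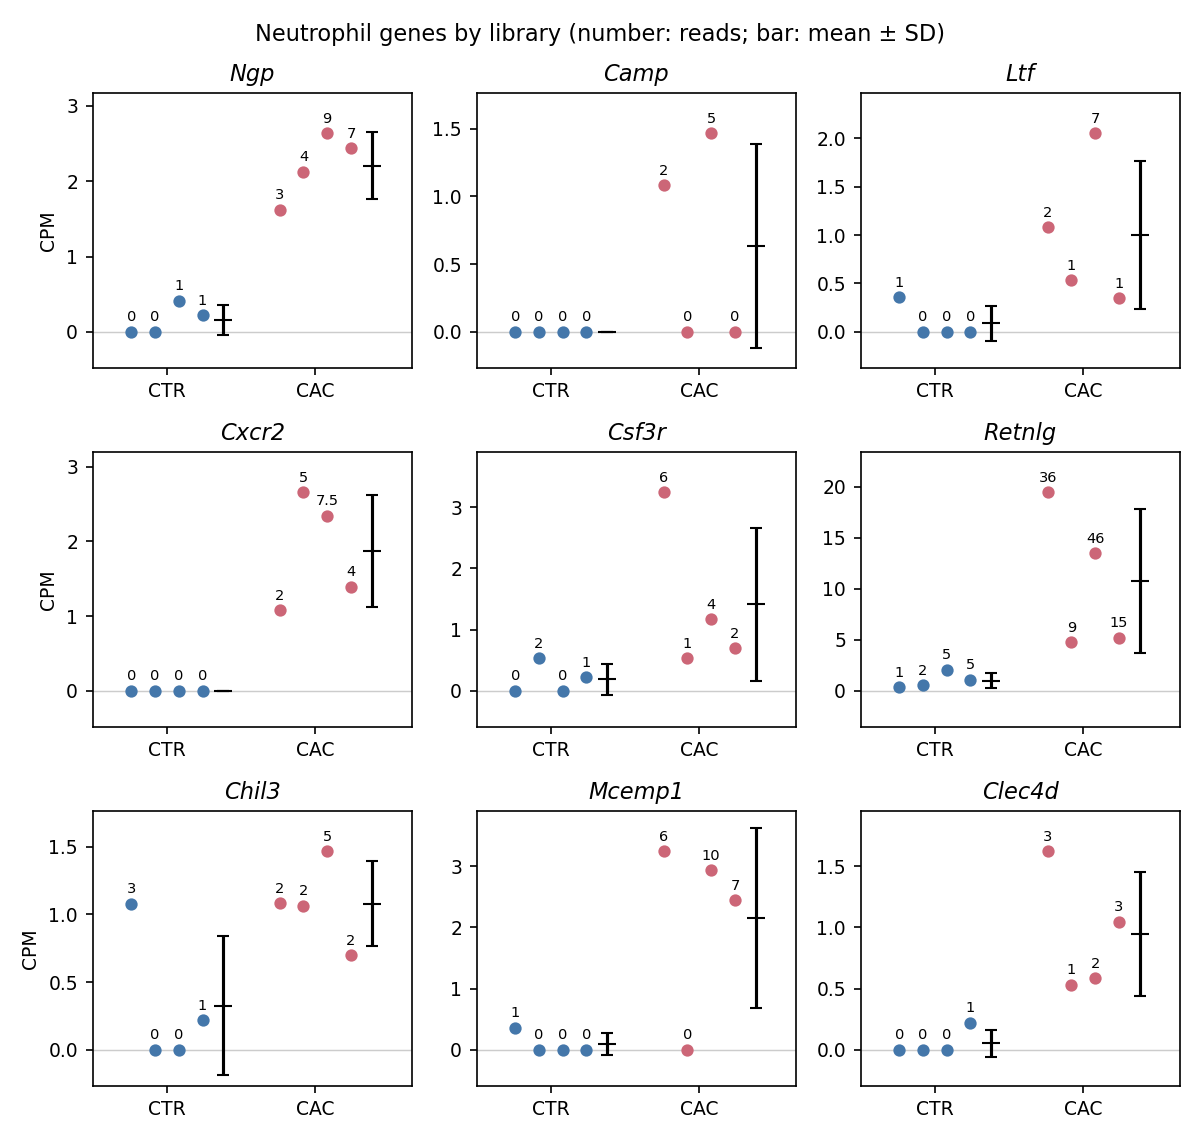
CPM of the 9 neutrophil genes in each library, 1 panel for each gene with its own axis, CTR libraries 1 to 4 in blue and CAC libraries 1 to 4 in red. The number over a point is its reads and the black bar is the mean ± SD (n = 4). The CAC points lie above all CTR points for Ngp, Cxcr2, Retnlg and Clec4d, and the groups overlap for the other 5 genes.

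In all, 4 of the 9 markers did not overlap between the groups and were higher in CAC, where 2.14% of all 23730 genes with a count did so. Among the 3930 genes under the filter with as many reads in all as the 8 low markers, the share was 1.88%, against 3 of these 8 markers. The markers were chosen with earlier results of these data known, so neither count supports anything about the markers as a set. When the edgeR test was run on all genes with a count and no filter, 3 of the 8 low markers had an adjusted p under 0.05: Ngp (edgeR adjusted p = 0.00316), Cxcr2 (0.000729) and Mcemp1 (0.000914). Of all genes, 0.923% were called higher in that fit. It kept Retnlg (edgeR adjusted p = 1.98e-15) and gave adjusted p of 0.183 for Camp and Ltf, 0.270 for Csf3r, 0.285 for Clec4d and 0.568 for Chil3. With the filter the same reads gave Retnlg an edgeR adjusted p of 0.0155, so these values depend strongly on the filter. Mcemp1 was called without the filter although CAC library 2 had no read and its exact permutation p was 0.143. The calls of the unfiltered fit are therefore given as a description only. DESeq2 gave an adjusted p for Retnlg only (8.45e-06), with 0.889% of genes called higher, and left the other 8 without one because of their low counts.

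The question the early and mature genes address is whether the neutrophil transcripts of CAC BAT come in another mixture than those of CTR BAT. Ngp, Camp and Ltf together had 1, 0, 1 and 1 reads in CTR and 7, 5, 21 and 8 in CAC. Cxcr2, Csf3r and Retnlg together had 1, 4, 5 and 6 reads in CTR and 44, 15, 57.5 and 21 in CAC. Both sums separated the groups.

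In summed CPM the early genes stood at 0.249 ± 0.185 (SD, n = 4) in CTR and 3.85 ± 1.62 in CAC, a pooled ratio of 18.4 (5.87 to 92.9). The mature genes stood at 1.21 ± 0.708 and 14.0 ± 7.87, a pooled ratio of 11.6 (6.90 to 20.9). Without Retnlg, Cxcr2 and Csf3r had 3 reads in CTR and 32 in CAC, a ratio of 14.4 (4.49 to 73.3). The intervals of these ratios overlap widely, so no difference between the early and the mature genes was detectable at this depth.

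The early share of the early plus mature reads was 13.7%, 25%, 26.6% and 27.6% in CAC libraries 1 to 4. CTR libraries 1 to 4 had shares of 50.0%, 0%, 16.7% and 14.3%, each from 2 to 7 reads and therefore with almost no precision. Pooled, the share was 15.8% in CTR (exact Clopper-Pearson 95% interval 3.38 to 39.6) and 22.9% in CAC (17.0 to 29.8). The CTR interval contains the whole CAC interval. The CAC share is the better measured one, and it was lowest in CAC library 1, the library with the highest Retnlg level.

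The share depends on Retnlg, which supplies 106 of the 138 mature reads in CAC. Without it the early share was 50.0% in CTR, from 3 early and 3 mature reads, and 56.2% in CAC. Both values moved, and the CTR value has almost no precision, so the groups cannot be compared by it. The share also depends on which genes are counted: with Chil3 among the early and Mcemp1 and Clec4d among the mature genes it was 28% in CTR and 23.4% in CAC, the opposite order of the groups. That CTR value rests on 25 reads, so the order is not firmly measured either. Retnlg itself held 52.0% (31.3 to 72.2) of the reads of the 9 markers in CTR and 47.7% (41.0 to 54.5) in CAC. The remaining 8 markers had 12 reads in CTR and 116 in CAC, a pooled ratio of 13.0 (7.17 to 25.9), beside 11.0 (6.15 to 21.3) for Retnlg.

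**Figure D2:**
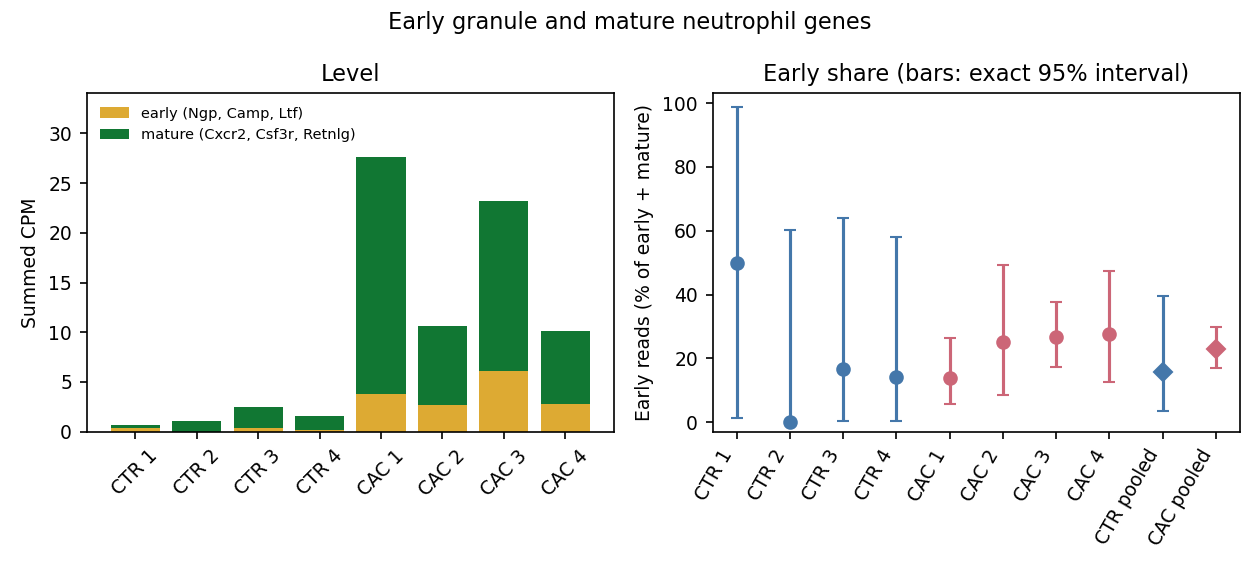
Left, summed CPM of the early granule genes (yellow) and the mature genes (green) in each library. Right, early reads as a percentage of early plus mature reads, with exact 95% counting intervals, for each library (circles) and for the pooled groups (diamonds): the level differs between the groups, and the pooled shares of 15.8% and 22.9% have overlapping intervals.

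Beyond the markers, 43 other genes were listed for 5 stages or compartments of the neutrophil. Of these, 2 had no read, 9 were tested and 2 were called, both higher in CAC, beside 0.739% of all tested genes called higher. At an unadjusted p under 0.05, 7 of the 9 were higher, beside 7.01% of all tested genes, and 0 were lower. Of the 43, 8 were higher without overlap, beside 2.14% of all genes with a count. The lists, like the markers, were chosen with earlier results of these data known, so this count supports nothing about them. The 2 called genes were S100a8 and S100a9, whose proteins form calprotectin, the most abundant protein of the neutrophil cytosol, which monocytes make as well. Like Retnlg, they could be tested only because they were high in CAC. S100a8 reached the level of the filter in 1 CTR and 4 CAC libraries and S100a9 in 0 and 4. Both are also among the 7 genes above, as is Il1r2, which entered the test in the same way. Neither the count of calls nor the count of 7 therefore supports anything about the list. The remaining tested genes of the list that holds S100a8 and S100a9 were not called, and they are named after their values were seen. Their edgeR log2 fold changes were 0.94 for Hdc (adjusted p = 0.180) and 0.79 for Cebpd (adjusted p = 0.282). Mxd1 had 0.35 (adjusted p = 0.673) and Wfdc21 had 0.02 (adjusted p = 0.990).

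The azurophil granule genes, the earliest programme, had 26 reads in CTR and 31 in CAC over 6 genes, and none was tested or free of overlap. Prss57 and Prtn3, serine protease genes of this granule, stood at 1.12 ± 0.658 and 0.802 ± 0.970 CPM (SD, n = 4) in CTR and 1.59 ± 0.452 and 0.809 ± 0.444 in CAC. Mpo, which encodes myeloperoxidase and is named here after its values were seen, had 0 reads in CTR and 2 in CAC. The pooled ratios of Prss57 and Prtn3 were 1.27 (0.599 to 2.67) and 1.35 (0.474 to 3.83), beside the ratio of 15.5 for Ngp.

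Of the further specific granule genes, Lcn2, which encodes the iron siderophore binder lipocalin 2, had 1, 0, 0 and 0.5 reads in CTR and 10, 4, 13 and 5 in CAC. Mmp8, neutrophil collagenase, had 1 and 10 reads, a ratio of 13.5 (1.92 to 584). Both were free of overlap, and neither had the reads to be tested across genes. The rest of this list is named after its values were seen. Cd177 had 0.5 reads in CTR and 7 in CAC, also without overlap. Pglyrp1 was near equal with 1.2 and 1 reads, a ratio of 1.35 (0.0172 to 106). Fcnb had 0 and 2 reads, and Olfm4 had none in any library.

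Of the 8 gelatinase granule and secretory vesicle genes, 2 were tested and 0 were called, beside 0.932% of all tested genes, while both were higher at an unadjusted p under 0.05, beside 7.01%. Hp, which encodes haptoglobin and is expressed by fat cells as well, had an edgeR log2 fold change of 0.44 (adjusted p = 0.0844), and Mmp9, gelatinase B, had 0.66 (adjusted p = 0.286). Neither passed the adjusted test. Mmp25, a membrane-bound metalloproteinase named after its values were seen, had 3 reads in CTR and 11 in CAC, a pooled ratio of 4.94 (1.30 to 27.6). Fpr1 and Fpr2, receptors of formyl peptides also named afterwards, each had 0 reads in CTR and 5 in CAC. The remaining genes of this list, named afterwards too, were near equal. Itgam had 14.5 reads in CTR and 14 in CAC, a pooled ratio of 1.26 (0.562 to 2.79). Slc11a1 had 8 and 7 reads, a ratio of 1.18 (0.364 to 3.72), and Adam8 had 3.5 and 4, a ratio of 1.01 (0.148 to 5.97).

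Other surface genes of mature neutrophils were mixed. Il1r2, the decoy receptor of interleukin 1, had an edgeR log2 fold change of 1.03 (adjusted p = 0.11), without overlap between the groups. It stood at 4.68, 2.66, 2.90 and 2.87 CPM in CTR and 5.95, 4.79, 8.20 and 6.62 in CAC. Against a filter level of 3.52 CPM, it too could be tested only because it was high in CAC. Ptafr, the receptor of platelet-activating factor, had 21 reads in CTR and 12 in CAC. Cd300lf, an inhibitory myeloid receptor named after its values were seen, had 0 reads in CTR and 16 in CAC, with 5.19 as the lower end of the exact 95% interval of the ratio. Ly6g, the usual surface antigen of mouse neutrophils and also named afterwards, had 0 and 2 reads, too few for a ratio.

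**Figure D3:**
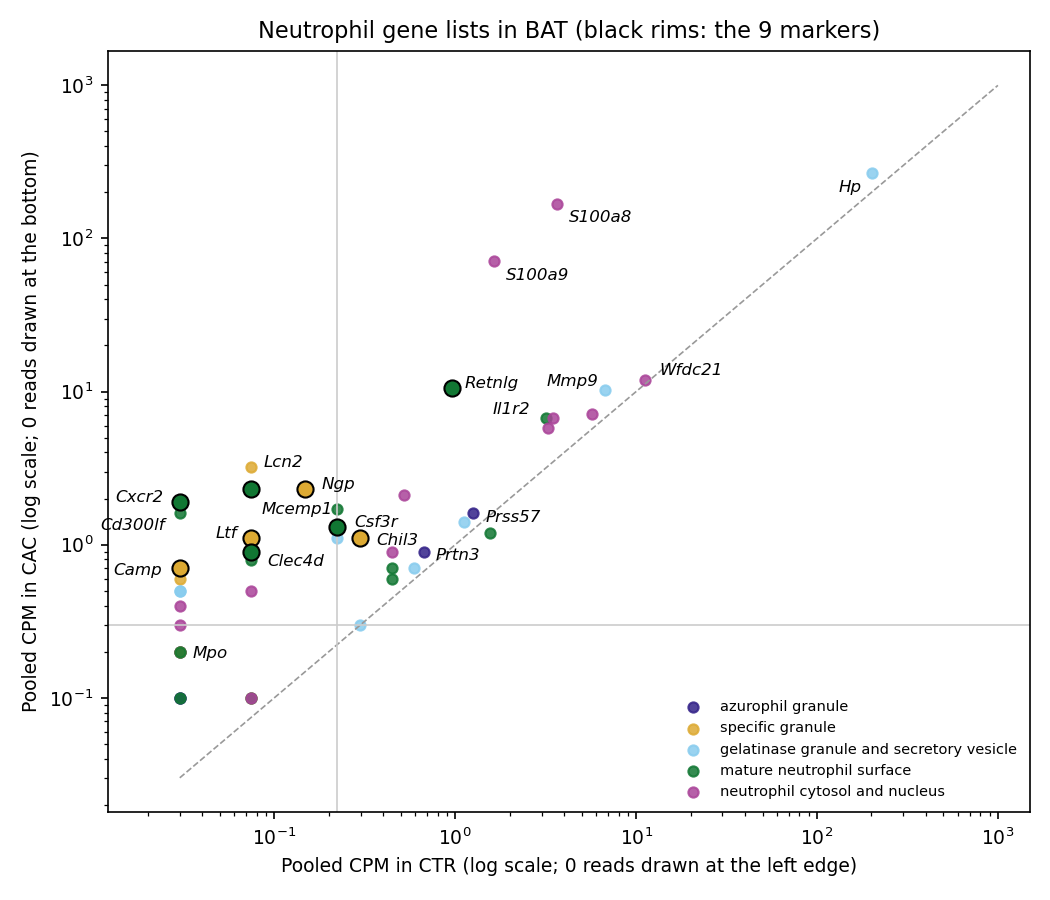
Pooled CPM in CTR (horizontal, log scale) against CAC (vertical, log scale) for the genes of 5 neutrophil lists with a read, coloured by list, with black rims on the 9 markers. The dashed line marks equal levels and the grey lines the level of 3 reads in a group. The markers with reads in both groups, S100a8 and S100a9 lie above the dashed line, Chil3 (pooled ratio 3.70) less far than the others. Prss57, Prtn3, Hp and Wfdc21 lie near it. Camp and Cxcr2 had 0 reads in CTR, so their distance from the line is not a ratio.

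Set beside S100a8 and S100a9, the markers made up a smaller part of the reads in CAC. S100a8 had 49 reads in CTR and 1690 in CAC (edgeR log2 fold change 5.57, adjusted p = 0.00515), and S100a9 had 22 and 716 (5.45, adjusted p = 0.000182). The 9 markers held 26.0% (17.6 to 36.0) of the reads on markers, S100a8 and S100a9 in CTR and 8.45% (7.41 to 9.58) in CAC, and these counting intervals do not overlap. The share lay between 6.57% and 9.76% in the CAC libraries and between 15.4% and 37.5% in the CTR libraries. The pooled ratios behind it were 12.0 (7.89 to 18.9) for the markers, 46.4 (35.0 to 63.0) for S100a8 and 43.8 (28.7 to 70.4) for S100a9. The pair thus differed between the groups by more than the markers did, as judged by counting error alone, and no test over the chosen genes was made.

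Of 9 genes that attract or feed neutrophils, 6 had no read in any library, among them the chemokine genes Cxcl1 and Cxcl5, which encode ligands of Cxcr2, and Csf3, which encodes the ligand of Csf3r. Cxcl2, which encodes another ligand of Cxcr2, had 0 reads in CTR and 1, 0, 3 and 1 in CAC. Cxcl12, which retains neutrophils in the marrow and is made by stromal cells, had 582 reads in CTR and 564 in CAC and an edgeR log2 fold change of 0.37 (adjusted p = 0.192), without overlap between the groups. Ppbp, a platelet chemokine gene, had 23 reads in CTR and 22 in CAC. Cxcl12 was the only one of the 9 with enough reads to be tested.

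Of 8 genes with which leukocytes hold to vessel walls, 2 were tested, and 0 of those were called, beside 0.932% of all tested genes. Pecam1, an endothelial junction protein, had an edgeR log2 fold change of 0.26 (adjusted p = 0.426), and Vcam1, an endothelial adhesion molecule, had 0.70 (adjusted p = 0.315). In CTR, Vcam1 stood at 3.13 ± 0.305 CPM (SD, n = 4), under the filter level of 3.52 CPM. It too could be tested only because it was high in CAC. Of the 8, 3 were higher in CAC without overlap, beside 2.14% of all genes with a count: Vcam1, Selplg and Selp. Selplg, the leukocyte ligand of P-selectin, named after its values were seen, had 18 reads in CTR and 37 in CAC, a pooled ratio of 2.77 (1.54 to 5.16). Selp, P-selectin itself and likewise named afterwards, had 2 reads in CTR and 24.5 in CAC, a ratio of 16.8 (4.20 to 147). The rest of the list, named afterwards too, was mixed. Itgb2 went the other way, with 13 reads in CTR and 6 in CAC, a ratio of 0.621 (0.194 to 1.75). Itgal had 6 and 6 reads, a ratio of 1.35 (0.360 to 5.04). Sele had 7 and 18, a ratio of 3.46 (1.38 to 9.81), and Icam1 had 10 and 11.5, a ratio of 1.62 (0.640 to 4.17).

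Markers of other cells moved with the neutrophil genes in part. Of the 8 brown adipocyte genes, all were tested and 0 were called, beside 0.932% of all tested genes, a share at which 0 of 8 is no result. Ucp1, the uncoupling protein, and Cidea, a lipid droplet protein, had edgeR log2 fold changes of 0.03 (adjusted p = 0.935) and 0.18 (adjusted p = 0.568). Named after their values were seen, the lipid droplet gene Plin1 had -0.27 (adjusted p = 0.192), the fatty acid carrier gene Fabp4 had -0.24 (adjusted p = 0.387) and the deiodinase gene Dio2 had 0.69 (adjusted p = 0.408), and Plin1 alone was under 0.05 unadjusted. The list summed to 14875 to 16642 CPM in CTR and 14605 to 16796 in CAC, a sum to which genes of either direction contribute. The 12 monocyte and macrophage genes summed to 207 to 226 CPM in CTR and 281 to 383 in CAC. Of the 7 tested, C1qa and C1qb, complement genes of tissue macrophages, were called higher, beside 0.739% of all tested genes, while Lyz2 (edgeR log2 fold change 0.41, adjusted p = 0.401) and Csf1r (0.48, adjusted p = 0.0778) were not. At an unadjusted p under 0.05, 4 of the 7 were higher, beside 7.01% of all tested genes, and 4 of the 12 were higher without overlap, beside 2.14%.

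Eosinophil genes (0.220 to 2.07 CPM in CTR, 0.349 to 1.76 in CAC) and T and NK cell genes (1.24 to 2.43 and 0.541 to 1.06) were at a few reads in every library. Their most abundant genes, Ear2 and Ccr3, and Cd3d and Cd3e, had at most 12 reads in a group. The mast cell genes, with Kit and Cpa3 the most abundant, summed to 9.36 to 16.8 CPM in CTR and 11.2 to 21.1 in CAC, and 0 of the 3 tested were called, beside 0.932% of all tested genes. The platelet genes, led by Pf4 and Gp1bb, summed to 23.8 to 34.2 CPM in CTR and 22.7 to 38.1 in CAC. Of these lists, the T and NK cell genes alone separated the groups, lower in CAC, from 24 reads in CTR and 8 in CAC.

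The skeletal muscle genes, led by Acta1 and Myh4, summed to 715 to 1884 CPM in CTR and 1567 to 3124 in CAC, and 0 of the 5 tested were called, beside 0.932% of all tested genes. At an unadjusted p under 0.05, 3 of the 5 were higher, beside 7.01% of all tested genes, and Myh4 (edgeR log2 fold change 1.30, adjusted p = 0.210) was higher without overlap. The 6 erythroid genes, which report blood in the tissue, summed to 6180 to 19268 CPM in CTR and 14636 to 44326 in CAC. Of these, all tested, 1 was called higher, beside 0.739% of all tested genes: Slc4a1, the red cell anion exchanger (edgeR log2 fold change 3.88, adjusted p = 0.00343), while the globin genes Hba-a1 (1.47, adjusted p = 0.290) and Hba-a2 (1.36, adjusted p = 0.294) were not. Slc4a1 reached the level of the filter in 0 CTR and 4 CAC libraries, so it too was tested only because it was high in CAC. At an unadjusted p under 0.05, 5 of the 6 were higher, beside 7.01% of all tested genes. The part of these cells in the marker values was not tested.

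Across the CAC libraries the summed marker CPM and the summed erythroid CPM had the same order. CAC library 1 had 33.5 CPM of markers and 44326 of erythroid genes, CAC library 3 had 28.1 and 37907, CAC library 4 had 14.3 and 23677, and CAC library 2 had 12.2 and 14636. Within CAC, libraries with more erythroid reads were thus those with more marker reads. CTR library 3 had 19268 CPM of erythroid genes, more than CAC library 2, and 2.49 CPM of markers.

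Set against the erythroid genes, the markers had 112 to 321 reads for every 1000000 erythroid reads in the CTR libraries (195 ± 96.0, SD, n = 4) and 604 to 836 in the CAC libraries (734 ± 96.4). The difference between the groups is smaller on this scale than in CPM, where the 9 markers stood at 1.92 ± 0.610 and 22.0 ± 10.4. The groups did not overlap on either scale.

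**Figure D4:**
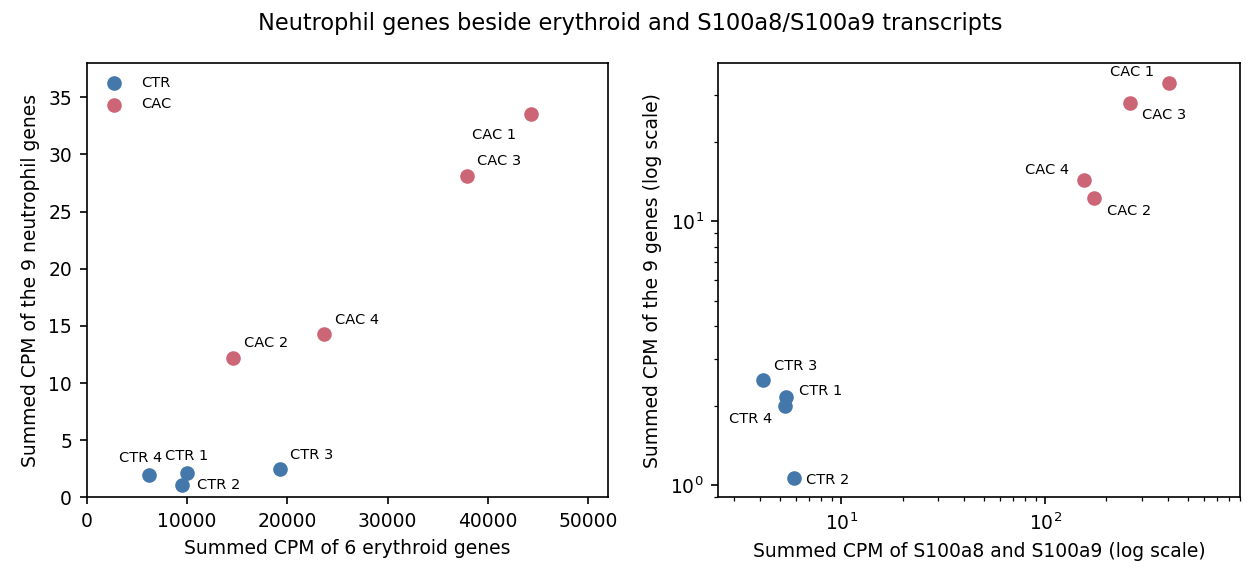
Summed CPM of the 9 neutrophil genes in each library against the summed CPM of 6 erythroid genes (left) and of S100a8 and S100a9 (right, both axes on a log scale), CTR in blue and CAC in red. CTR library 3 has more erythroid CPM than CAC library 2 and fewer marker CPM (2.49 against 12.2), and on the right the groups form separate clouds.

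Genes with a pattern like that of the markers were sought among the tested genes by Pearson's r of log2 CPM with the log2 CPM of the summed marker reads over the 8 libraries, as a description that mostly reflects the difference between the groups. The 8 highest were Alox5ap (r = 0.977), Ifitm6 (0.974), S100a9 (0.972), S100a8 (0.970), Ifitm1 (0.968), Tyrobp (0.966), C1qa (0.961) and Ctla2a (0.959). All 8 were called higher in CAC, beside 0.739% of all tested genes. They were picked by correlation with a sum that separates the groups, so this count of calls supports nothing. Alox5ap, which serves leukotriene synthesis in myeloid cells, stood at 2.70 ± 0.476 CPM (SD, n = 4) in CTR and 8.54 ± 1.88 in CAC. Ifitm6, an interferon-induced membrane protein gene of myeloid cells, stood at 1.41 ± 0.324 and 8.18 ± 1.78 CPM. Like S100a8 and S100a9, Alox5ap, Ifitm6 and Ifitm1 (0.984 ± 0.268 CPM in CTR) could be tested only because they were high in CAC. Once the group means were subtracted, the 8 closest genes were others, with r from 0.939 for Mrpl54 to 0.972 for Abca2. None of those 8 was called, and 0 genes were shared by the 2 sets.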

How the data were processed

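The authors sequenced BAT RNA as single-end reads from 1 library for each of 4 CTR and 4 CAC mice. The submitters' processing notes name FastQC 0.11.9, HISAT2 2.2.1, featureCounts and the build mm10, and the strand setting is not given in the sources used here. The deposited table holds expected counts per Ensembl gene, not normalized and with fractions where a read maps to several places. The second deposited table holds a signal, the counts that the authors normalized with DESeq2 size factors, and it was used as an alternative only. All columns were matched to samples by title, and 0 columns were left without a sample.

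Expected counts were rounded and tested with edgeR 4.0.16 (filterByExpr, TMM, robust quasi-likelihood test of group alone, Benjamini-Hochberg adjustment over 9876 genes, threshold 0.05) in R 4.3.3, with standard errors taken from the F statistic, after the script was tested on simulated data. Where groups are compared in CPM, TMM library sizes were used. Exact permutation tests, Clopper-Pearson and ratio intervals (level 95%) used Python 3.11.15 with scipy 1.17.1, and figures matplotlib 3.10.9. The depth of 1823167 to 4827956 counts puts 3 counts at 0.661 to 1.62 CPM. P-values measure the spread between these mice.

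The 9 markers are all named. From other neutrophil, chemokine and adhesion lists, genes called at 0.05 and the 2 most abundant of each list are named, from lists of other cells the 2 most abundant, and the 8 genes most correlated with the summed markers. Mpo, Mmp25, Fpr1, Fpr2, Itgam, Slc11a1, Adam8, Cd300lf, Ly6g, Wfdc21, Cxcl1, Cxcl2, Cxcl5, Csf3, Selplg, Selp, Itgb2, Itgal, Sele, Icam1, Plin1, Fabp4, Dio2, C1qb and Slc4a1 fall outside this rule and were chosen after their values were seen. Hdc, Cebpd, Mxd1, Cd177, Pglyrp1, Fcnb and Olfm4 were likewise named after their values were seen. The markers and lists were chosen with earlier results of these data known. The alternatives tried were DESeq2 1.42.0, normalization by library size or upper quartile, other filters, a block for the replicate number, limma 3.58.1 (trend) on log2 of the deposited signal plus 1 for genes with a mean of at least 1, log2(CPM + 1), other sets for the early share and each library left out. Coordinates are those of GENCODE M21, matched by Ensembl ID without version. The values of 1 list of another cell type are not reported here.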

Additional observations from a re-analysis of the deposited data

Results flagged for a closer look

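In 64 groups of 4 libraries, the gap from the highest or lowest value to the nearest of the others was divided by the range. The result was held against Dixon's criterion for groups of 4. Chance picks about 1 in 20 groups, or 3.2 here, and 4 were found. Ltf and Mcemp1 in CTR replicate 1 each stood at 0.3599 CPM while the other 3 CTR libraries were at 0, and Clec4d in CTR replicate 4 stood at 0.2205 CPM while the others were at 0. Each of these 3 values is 1 read. A single read beside none in the other libraries always gives a Dixon ratio of 1, so the chance share does not apply to these 3 flags. The summed CPM of the 8 brown adipocyte genes reached 16640 in CTR replicate 4, and the remaining 3 CTR libraries held 14880 to 14970.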

How the results depend on the processing

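The Retnlg log2 fold change kept its direction under every alternative that gave a value, with edgeR, DESeq2 or limma adjusted p from 1.98e-15 to 0.0738. It ranged from 3.05 to 3.81 when 1 library was left out, and the edgeR adjusted p passed 0.05 without CTR replicate 1, 2 or 4. A filter of at least 10 counts in every library removed Retnlg and gave no value. The number of called genes was 351 with no filter, where more genes were tested, 140 with the replicate block and 42 (without CTR replicate 1) to 135 (without CTR replicate 3) when 1 library was left out, against 92 in the test reported, and 60 without CAC replicate 3. The cause of these moves was not tested. Replicate numbers are shared between the groups, but deviations of libraries with the same number correlated by only 0.03, -0.02, 0.03 and 0.04, so the numbers do not pair the mice. With the replicate block, the Retnlg value was 3.21 on the log2 scale, at an edgeR adjusted p of 0.000248. Of the 9 single tests, Csf3r alone passed 0.05 under a full-sample alternative and not in the reported test (difference of 3.41 deposited normalized values, exact permutation p = 0.0286). Leaving out CAC replicate 1 lowered the Csf3r difference from 1.22 to 0.612 CPM, and leaving out CAC replicate 3 lowered Camp from 0.637 to 0.360 and Ltf from 0.913 to 0.564. Markers without overlap numbered 4 to 6 when 1 library was left out, with 6 without CTR replicate 1 or CAC replicate 2. The early share moved to 50% in CTR and 56.16% in CAC without Retnlg, and to 28% and 23.42%, the opposite order, with Chil3, Mcemp1 and Clec4d included. Both of these CTR values rest on few reads. Over the libraries left out it was 11.8% to 20% in CTR and 20% to 26.6% in CAC. Limits are the depth, which leaves 8 of 9 markers under the filter and CTR shares resting on 19 reads, bulk tissue that holds blood, and animals of either sex with no label of which.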
